A study of Mus musculus with 12 samples.

Results

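The calcium and copper transporting ATPases were followed through DEX treatment and withdrawal in sorted mouse corticotrophs. The family was taken by gene symbol, as the 10 genes *Atp2a1*, *Atp2a2*, *Atp2a3*, *Atp2b1*, *Atp2b2*, *Atp2b3*, *Atp2b4*, *Atp2c1*, *Atp7a* and *Atp7b*, among 55304 genes in the table. All 10 were measured, and all 10 were among the 24736 genes tested, those that exceeded 0.1 normalised counts in 3 or more libraries. The family was chosen by the values of *Atp2a1* and *Atp7b* in the 4 groups, since both are on the study's own list of genes that changed across these same libraries. Their values are therefore given as a description, and the test across all genes is given for the other 8. Calls that include *Atp2a1* and *Atp7b* are given at the end, only to show how they move with the processing.

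Corticotrophs are the anterior pituitary cells that secrete adrenocorticotrophic hormone (ACTH), cut from the precursor encoded by *Pomc*. The libraries came from male *Pomc*-eGFP mice on a C57Bl6/J background, 8 weeks old at the start, in which the *Pomc* promoter drives a green fluorescent protein, and viable fluorescent cells of the dissociated anterior lobe were collected by fluorescence-activated cell sorting (FACS). Control mice (group A) drank standard water. DEX mice (group B) drank water with 2.5 µg/ml dexamethasone, a synthetic glucocorticoid, for 4 weeks up to collection. In the other groups the same 4 weeks of DEX were followed by standard water for 7 days (group C, 1 week recovery) or 28 days (group D, 4 weeks recovery), and the start of DEX was staggered so that all mice were collected at the same age. Each group had 3 libraries, and each library was a pool of sorted cells from 2 to 3 mice of a single cage, so n counts pools. The sort reads the activity of the promoter that DEX represses, and the gate cannot tell a corticotroph from another cell that carries the fluorescent protein. *Pomc*, which responds to glucocorticoids and served as a check of the labels, had 34562 to 74260 normalised counts in control pools, 4241 to 8521 in DEX pools, 43612 to 284740 after 1 week and 48189 to 80216 after 4 weeks.

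Libraries held 7719894 to 12848078 reads on genes, and 1 read was worth 0.0787 to 0.127 normalised counts. On the first principal component, which held 22.7% of the variance, control pool 3 (88.4) and 1 week pool 3 (132) lay at the high end, and DEX pool 3 (-87.4) and 1 week pool 2 (-81.3) at the low end. Markers of other pituitary cells were present in every library. *Gh* and *Ghrhr* of somatotrophs summed to 67667 to 265990 normalised counts, and *Prl* of lactotrophs lay between 31498 and 119783. The sum of 6 endothelial markers was 3.15 to 7.85 in DEX pools, 6.77 to 62.8 in control pools, 26.0 to 162 after 1 week and 78.5 to 148 after 4 weeks. Of the endothelial list, *Kdr* and *Emcn* passed the test across groups, and of the 6 pericyte and fibroblast markers *Col3a1* did. The part that other cells play in the values below was not tested. In sorted pools, fewer cells of a type and less RNA per cell cannot be told apart.

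All 10 genes encode P-type ATPases, membrane proteins that bind the phosphate of ATP on an aspartate residue and use the energy to move ions against their gradient. The products of *Atp2a1*, *Atp2a2* and *Atp2a3* are the SERCA pumps, which return calcium from the cytosol to the endoplasmic reticulum after a signal. The products of *Atp2b1* to *Atp2b4* are the PMCA pumps, which push calcium out through the plasma membrane and are stimulated by calmodulin. *Atp2c1* encodes the SPCA1 pump, which fills the Golgi apparatus with calcium and manganese. *Atp7a* and *Atp7b* encode the copper pumps, mutated in Menkes and Wilson disease, which load copper onto enzymes in the secretory pathway and export its excess. In corticotrophs, secretion of ACTH is triggered by a rise in cytosolic calcium, and peptidyl-glycine amidation in secretory granules needs copper.

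The promoters of *Atp2a1* and *Atp7b*, the genes that stood highest in DEX pools, were searched because both genes are described together below. For each, the 250 bases before the start annotated by RefSeq on GRCm38.p6 were used. The searched motifs were a glucocorticoid response element (GRE, GNACANNNTGTNC), a GRE hexamer (TGTTCT), the core of a metal response element (MRE, TGCNCNC) and an E box (CANNTG), on both strands, and the hexamer can lie inside a full GRE. Shown is the part of the *Atp2a1* window that lies outside the gene as GENCODE annotates it, chr7:126463109-126463323 on the minus strand, with the match to the MRE core in capitals.
Atp2a1: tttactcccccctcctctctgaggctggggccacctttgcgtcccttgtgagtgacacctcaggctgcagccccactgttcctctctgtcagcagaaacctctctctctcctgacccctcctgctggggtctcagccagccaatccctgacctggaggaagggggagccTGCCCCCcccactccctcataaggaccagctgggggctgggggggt
The *Atp2a1* window held 1 MRE core, at -81 from the RefSeq start, and 1 E box at -55. The *Atp7b* window (chr8:22060075-22060324, minus strand) also held 1 MRE core, at -157. It is not printed because 231 of its 250 bases, the MRE core among them, lie inside the gene as GENCODE annotates it. Neither window held a GRE or the hexamer. Among 32851 mouse promoter windows of the same length, 44.4% held an MRE core, 66.2% an E box, 16.1% the hexamer and 0.387% a GRE. Of the other genes with a window, *Atp7a* held 3 MRE cores, *Atp2c1* 2 in 1 of its 2 windows, *Atp2b1* 1 in each of its 2 windows, and *Atp2a3* 1. *Atp2b2* held the hexamer and an MRE core in 1 of its 3 windows, and *Atp2b4* held the hexamer and no MRE core. A match describes letters in a window and says nothing of binding.

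*Atp2a1* was the gene of the family with the widest range. It lies on chromosome 7 (126445858 to 126463108, minus strand, GRCm38) and encodes SERCA1, the pump of fast skeletal muscle. It had 24.7, 14.96 and 10.9 normalised counts in control pools 1 to 3 and 135, 53.6 and 249 in DEX pools. The values were 12.4, 7.39 and 1.67 after 1 week of recovery, and 7.95, 4.38 and 13.8 after 4 weeks. The lowest DEX pool thus stood above the highest of the 9 other pools, while both recovery groups overlapped the lower part of the control range. The mean was 16.8 ± 7.11 in control, 146 ± 98.4 in DEX, 7.14 ± 5.35 after 1 week and 8.71 ± 4.76 after 4 weeks (SD, n = 3 each). On the log2(value + 0.1) scale, which understates changes of low genes, the difference from control was 2.93 (SE 0.66) in DEX, -1.55 (SE 0.66) after 1 week and -1.01 (SE 0.66) after 4 weeks. Against DEX, the difference was -4.47 (SE 0.66) after 1 week and -3.94 (SE 0.66) after 4 weeks. These values rest on 655 to 2224 reads in DEX pools and on 15 to 314 reads elsewhere. The difference of DEX from control remained between 2.41 and 3.52 when any 1 library was dropped. That of 1 week from control lay between -2.14 and -0.73, the smaller size being obtained without 1 week pool 3.

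**Figure D1:**
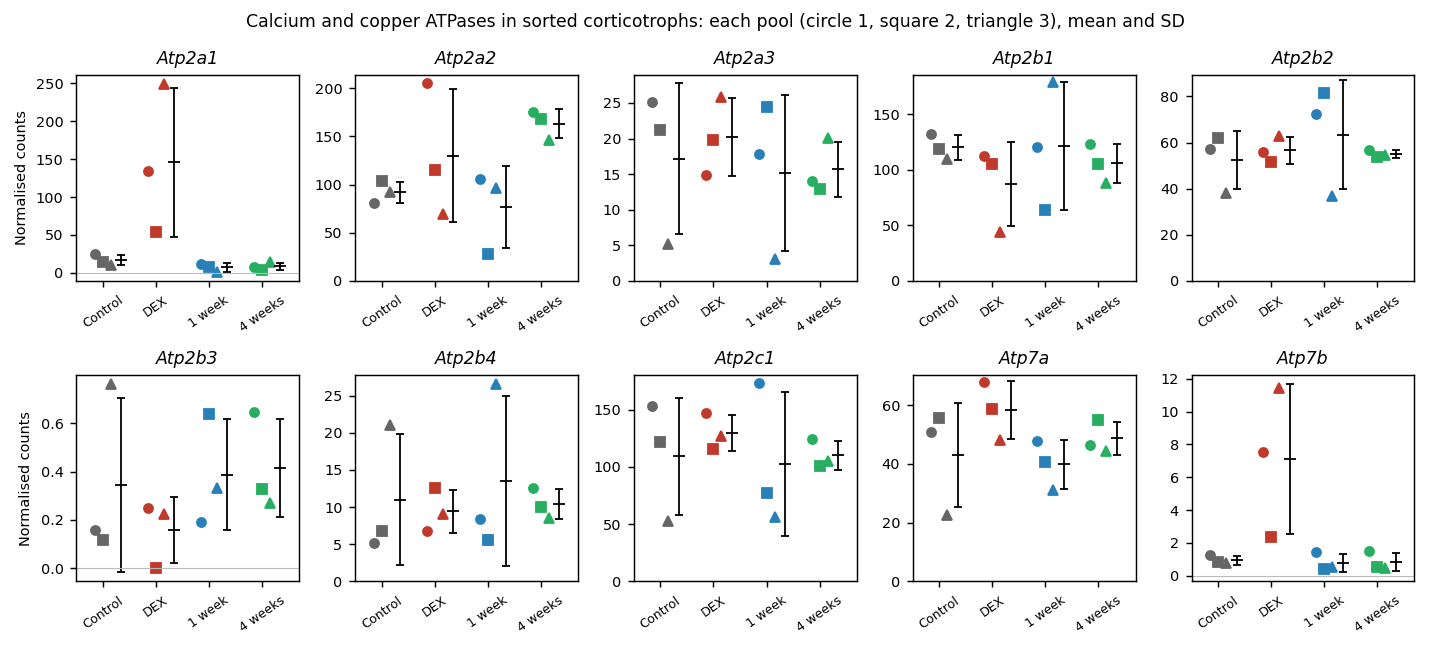
Normalised counts (vertical axis, linear) of the 10 genes in each of the 12 pools by group, with symbols for pools 1, 2 and 3 and a black mark for the mean with its SD. *Atp2a1* (53.6 to 249) and *Atp7b* (2.37 to 11.4) stand higher in every DEX pool than in any other pool, whereas the groups of *Atp2b1*, *Atp2b2*, *Atp2b4* and *Atp2c1* overlap.

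*Atp7b* showed the same ordering of DEX against the rest at a far lower level. It lies on chromosome 8 (21992785 to 22060305, minus strand) and encodes the copper pump that liver uses to excrete copper into bile. Control pools had 1.26, 0.825 and 0.761 normalised counts, and DEX pools had 7.54, 2.37 and 11.4. After 1 week the values were 1.43, 0.382 and 0.556, and after 4 weeks 1.48, 0.547 and 0.451. No DEX pool overlapped any of the 9 others, but the gap was narrow, since DEX pool 2 (2.37, 29 reads) was close to 4 weeks pool 1 (1.48, 16 reads). Means were 0.948 ± 0.271 in control, 7.12 ± 4.55 in DEX, 0.788 ± 0.559 after 1 week and 0.826 ± 0.567 after 4 weeks (SD, n = 3 each). The log2 difference from control was 2.55 (SE 0.69) in DEX, -0.39 (SE 0.69) after 1 week and -0.31 (SE 0.69) after 4 weeks. Outside the DEX group each library held only 3 to 16 reads of *Atp7b*. Counts this low cannot resolve a difference between its control and recovery pools.

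By lack of overlap, *Atp2a1* and *Atp7b*, 2 of 10 genes, were higher in all DEX pools than in all control pools, where 6.61% of all genes tested were, and both stood above all 9 other pools, where 2.26% did. These values chose the family, so nothing is read from the counts. Of the other 8 genes, 0 passed the test across all 4 groups (limma F test over the 3 contrasts against control, adjusted over all genes, threshold 0.05), where 0.315% of all genes tested did. In the contrast of DEX with control 0 of these 8 passed, where 0.121% of all genes did. In 1 week recovery against DEX 0 of 8 were called lower, where 0.327% of all genes tested were, and in 4 weeks recovery against DEX 0 of 8, where 0.461% were. None of the 8 had an unadjusted p under 0.05 in any of these 4 tests.

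**Figure D2:**
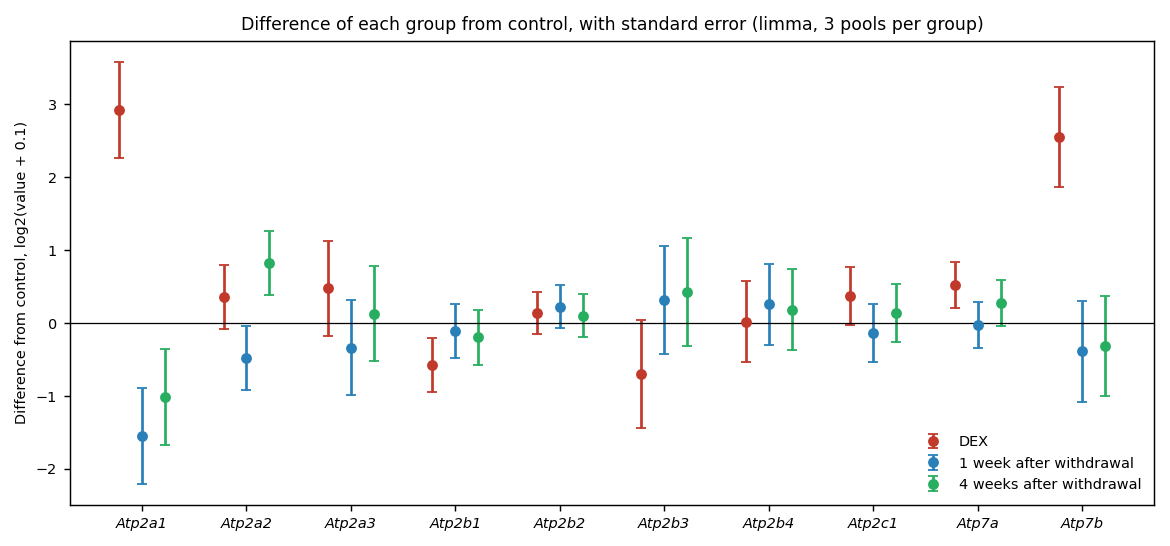
Difference of each group from control for the 10 genes on the log2(value + 0.1) scale (vertical axis), with points for the fitted difference and bars for its standard error (limma, 3 pools per group). The DEX points of *Atp2a1* (2.93) and *Atp7b* (2.55) stand apart from those of the other 8 genes, which lie between -0.70 and 0.53.

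In both genes DEX pool 3 was highest and DEX pool 2 lowest. The 5 corticotroph markers, looked at after these values were seen, differed in this respect. *Tbx19*, the transcription factor that specifies corticotrophs, had the same order, with 769, 498 and 1490 normalised counts in DEX pools 1 to 3, against 218 to 459 in control pools, 39.5 to 385 after 1 week and 94.4 to 188 after 4 weeks. The vasopressin receptor gene *Avpr1b* had it too, with 103, 67.9 and 130 in DEX pools and 12.1 to 60.03 in control pools. The receptor gene for corticotrophin-releasing hormone, *Crhr1*, had 52.7, 59.2 and 138 in DEX pools and 85.5 to 189 in control pools, and the transcription factor gene *Neurod1* had 28.9, 27.1 and 28.6 against 22.3 to 44.3. On the log2 scale the difference of DEX from control was 1.55 (SE 0.65) for *Tbx19*, 1.87 (SE 0.90) for *Avpr1b*, -0.61 (SE 0.74) for *Crhr1*, 0.01 (SE 0.50) for *Neurod1* and -3.41 (SE 1.10) for *Pomc*, and none of the 5 passed limma's F test.

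A level relative to corticotroph RNA therefore depends on the marker. Per 100 counts of *Tbx19* in the same library, *Atp2a1* was 5.38, 6.53 and 4.99 in control pools and 17.5, 10.8 and 16.7 in DEX pools. After 1 week it was 4.38, 1.92 and 4.23, and after 4 weeks 4.79, 4.64 and 7.35. The mean was 5.63 in control, 3.51 after 1 week and 5.59 after 4 weeks. In DEX the mean was 2.66 times that in control. Taken to *Avpr1b* the means of DEX and control differed 2.11 times. The DEX pools (78.8 to 192 per 100) then overlapped the control pools (41.2 to 90.1). Taken to *Crhr1* and *Neurod1* they differed 12.7 and 8.95 times, and every DEX pool stood above the 9 others, as it also did taken to *Tbx19* and *Pomc*. For *Atp7b* the mean in DEX was 2.26 times that in control taken to *Tbx19*, 1.68 times taken to *Avpr1b*, 10.96 times taken to *Crhr1* and 7.52 times taken to *Neurod1*. Its DEX pools stood above all 9 others taken to *Neurod1* and *Pomc*, but not taken to *Tbx19*, *Crhr1* or *Avpr1b*. Per 100 *Tbx19*, *Atp7b* was 0.980, 0.476 and 0.768 in DEX pools 1 to 3. It was 0.506, 0.0993 and 1.41 after 1 week and 0.890, 0.580 and 0.240 after 4 weeks. The means were 0.328 in control, 0.741 in DEX, 0.671 after 1 week and 0.570 after 4 weeks. In 1 week pool 3, where *Tbx19* was lowest, *Atp7b* rested on 5 reads, but DEX pool 2 was also below other recovery pools.

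**Figure D3:**
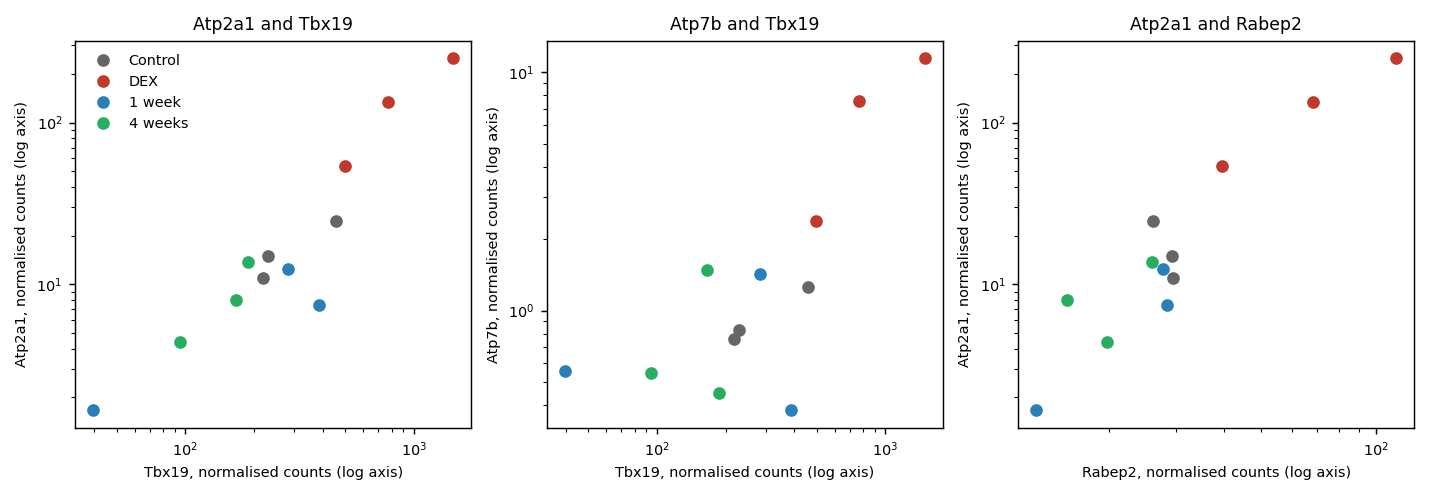
*Atp2a1* and *Atp7b* against *Tbx19*, and *Atp2a1* against its overlapping neighbour *Rabep2*, in normalised counts on log axes, with 1 point per pool coloured by group. The 3 DEX pools lie at the upper right of each panel, and 1 week pool 3 has the lowest *Tbx19* (39.5) and the lowest *Atp2a1* (1.67).

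Among 15755 genes with a mean of at least 1 normalised count, those whose log2 values over the 12 libraries were most like *Atp2a1* were *Tnnt1* (r = 0.976), which encodes the troponin T of slow skeletal muscle, *Tbc1d8* (r = 0.960), *Galnt9* (r = 0.953), a glycosyltransferase gene, *Susd2* (r = 0.952) and *Chrm2* (r = 0.950), which encodes a muscarinic acetylcholine receptor. *Tnnt1* averaged 27.6 normalised counts in control, 266 in DEX, 14.8 after 1 week and 14.5 after 4 weeks. *Chrm2* averaged 2.30, 19.8, 0.867 and 0.486 in the same order. For *Atp7b* the nearest were *Ankdd1b* (r = 0.962), *Plpp3* (r = 0.956), which encodes a lipid phosphate phosphatase, *C530008M17Rik* (r = 0.954), *Frmd4a* (r = 0.937) and *Usp2* (r = 0.934), a ubiquitin protease gene. *Ankdd1b* averaged 1.94 in control and 11.9 in DEX, and *Usp2* 106 and 186. *Atp2a1* and *Atp7b* had r = 0.887 with each other. By that measure *Atp7b* was in place 101 for *Atp2a1*, behind *Tbx19* in place 20 (r = 0.931). *Pomc* had r = -0.746 with *Atp2a1* and -0.844 with *Atp7b*. These correlations share libraries, depth and groups and are given as a description. The paper places *Tnnt1*, *Chrm2*, *Ankdd1b*, *C530008M17Rik* and *Frmd4a* among the genes up in DEX.

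SERCA1 is a muscle pump, so the markers of striated muscle were read beside *Atp2a1*. Of 15 genes on the list 11 were tested and 0 passed limma's F test, with 1 at an unadjusted p under 0.05. The sum of the list was 25.2 to 35.6 normalised counts in control pools, 23.9 to 41.0 in DEX pools, 37.5 to 52.0 after 1 week and 22.2 to 37.8 after 4 weeks, and the DEX pools lay within the range of the others. *Tnnc2*, the troponin C of fast fibres, was at 0 in every library. The fast myosin heavy chains *Myh1*, *Myh2* and *Myh4* did not exceed 0.285 in any library, and *Tnnt3* was above 0 in control pool 1 only (0.551). Myoglobin (*Mb*) reached at most 1.08. The creatine kinase gene *Ckm* had 1.16 to 2.24 in DEX pools and 0.647 to 2.67 elsewhere, and skeletal actin (*Acta1*) 1.23 to 2.24 and 0.510 to 7.67. *Myh7* and *Ttn*, the most abundant of the list, reached 35.8 in 1 week pool 2 and 25.6 in DEX pool 1. *Mylpf*, *Myl1*, *Tnni2*, *Tnnc1* and *Actn3* stayed between 0 and 4.21. The median log2 difference between DEX and control was -0.26 over the tested muscle genes and -0.02 over all genes tested. The list does not cover every muscle gene. It leaves out *Tnnt1*, which averaged 27.6 in control and 266 in DEX. It also leaves out *Myom1*, *Tpm2* and *Myh11*, which the paper places among the genes up in DEX.

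Reads on *Atp2a1* also have to be set beside those of its neighbours. *Rabep2*, which encodes an endosomal adaptor, overlaps *Atp2a1* from the opposite strand, and 763 exonic bases belong to both genes, out of 3477 exonic bases of *Atp2a1* and 5322 of *Rabep2*. The libraries were made with a kit that does not mark strand, so reads from those bases cannot be told apart. *Rabep2* had 26.0, 29.2 and 29.4 normalised counts in control pools, 68.3, 39.4 and 113 in DEX pools, 27.7, 28.3 and 12.9 after 1 week and 15.5, 19.8 and 25.9 after 4 weeks. Its log2 difference from control was 1.25 (SE 0.37) in DEX, with an adjusted p of 0.11 in limma's F test. The paper places *Rabep2* among the genes up in DEX. Its r with *Atp2a1* was 0.942. *Sh2b1*, 3885 bases beyond the start of *Atp2a1*, had 54.5 to 69.4 in control pools and 87.3 to 148 in DEX pools, a log2 difference of 0.79 (SE 0.32). *Gm45141*, the nearest measured gene on the other side, did not exceed 0.435. Beside *Atp7b*, *Alg11* begins 415 bases away and had 13.2 to 28.6 in control pools and 24.5 to 31.0 in DEX pools (log2 difference 0.43, SE 0.31). *Defb1*, on the other side, had 0.979 to 10.2 in control pools and 0.248 to 0.561 in DEX pools.

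*Atp2a2* encodes SERCA2, the housekeeping calcium pump of the endoplasmic reticulum. It had 81.4, 103 and 91.9 normalised counts in control pools, 205, 115 and 69.6 in DEX pools, 106, 27.8 and 96.4 after 1 week and 175, 168 and 146 after 4 weeks. The 4 weeks pools lay above all control pools and all 1 week pools, while the DEX pools spanned both ranges. The mean was 92.2 ± 10.9 in control and 163 ± 15.2 after 4 weeks (SD, n = 3 each), a log2 difference of 0.82 (SE 0.44) with an adjusted p of 0.81 in limma's contrast. Against 1 week the difference was 1.30 (SE 0.44), with an adjusted p of 0.71, and the F test gave an adjusted p of 0.56. *Atp2a2* was 1 of 10 genes higher in every 4 weeks pool than in every control pool, where 6.77% of all genes tested were, and 1 of 10 against 1 week, where 5.19% were. The endothelial marker sum was 78.5 to 148 in the 4 weeks pools, and in 1 week pool 3, where *Atp2a2* was 96.4, it was 162. The part of endothelial cells in these values was not tested. In DEX the log2 difference from control was 0.36 (SE 0.44). It was between -0.04 and 0.74 when any 1 library was dropped, and only without DEX pool 1 was it below 0. *Gm43361*, annotated on the opposite strand, shares 83 exonic bases with *Atp2a2* and had an r of 0.912 with it.

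*Atp2a3* encodes SERCA3, known from blood and epithelial cells. It had 25.2, 21.2 and 5.22 normalised counts in control pools and 14.9, 19.9 and 25.8 in DEX pools. After 1 week it had 17.9, 24.5 and 3.11, and after 4 weeks 14.0, 12.9 and 20.1. All 4 groups overlapped, and the low values belonged to control pool 3 and 1 week pool 3. The log2 differences from control were 0.48, -0.34 and 0.13 in DEX, 1 week and 4 weeks (SE 0.65 each; F test adjusted p 0.96, limma).

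Per kilobase of exon, the 3 SERCA genes shifted in their shares. *Atp2a1* made up 28.1%, 17.0% and 16.3% of the SERCA sum in control pools and 51.4%, 40.4% and 81.5% in DEX pools. It made up 14.6%, 18.8% and 2.84% after 1 week and 6.77%, 4.02% and 12.5% after 4 weeks. *Atp2a2* was the largest part in every control and every 4 weeks pool, with 53.0% to 78.6% and 75.5% to 88.2%. It held 44.9%, 49.7% and 13.0% in DEX pools and 71.6%, 40.3% and 93.7% after 1 week, where *Atp2a3* (40.9%) was the largest part in pool 2. The sum of the 3 genes per kilobase was 23.3 ± 3.50 in control, 67.1 ± 26.0 in DEX, 17.6 ± 6.57 after 1 week and 32.3 ± 1.27 after 4 weeks (SD, n = 3 each). Shares were also taken per kilobase of the longest coding sequence, because the annotated untranslated ends differ in length. By that length *Atp2a1* held 10.5% to 19.6% of the SERCA sum in control pools and 39.1%, 29.4% and 73.3% in DEX pools. *Atp2a2* was then the largest part in DEX pools 1 and 2 (56.8% and 60.2%). It was also the largest in 1 week pool 2, with 46.2% beside 40.9% for *Atp2a3*, so the largest part depends on the length used.

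**Figure D4:**
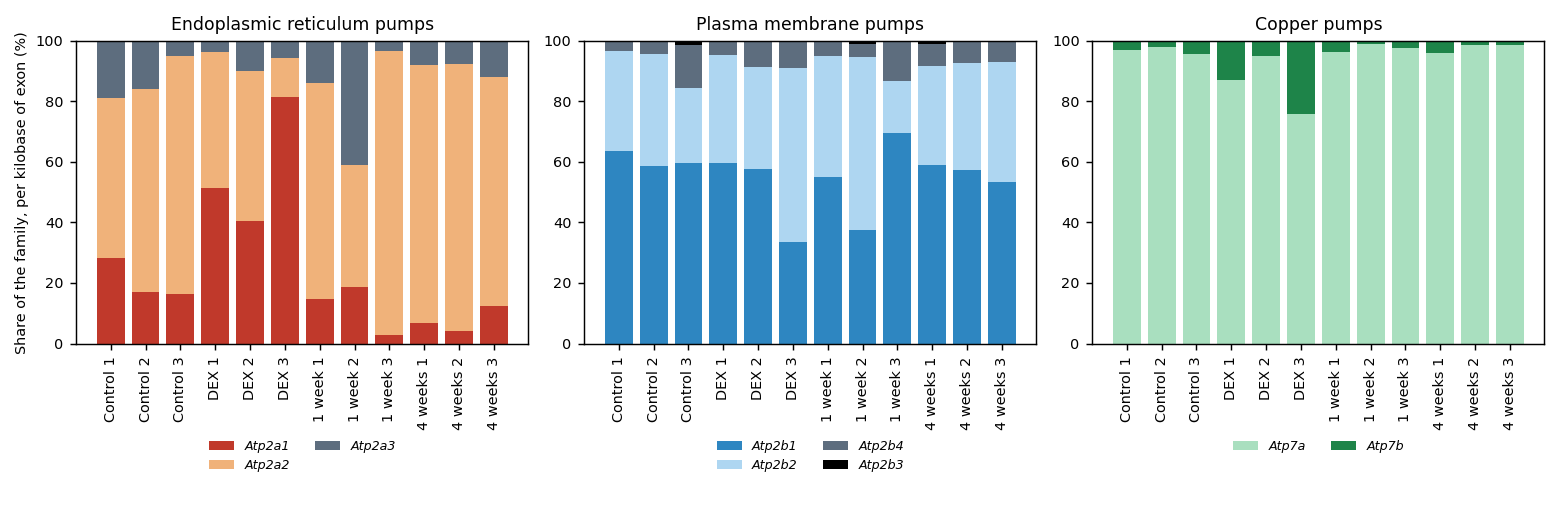
Share of each gene in the sum of its family per kilobase of exon (vertical axis, percent) for each of the 12 pools, for the SERCA, PMCA and copper pumps. The *Atp2a1* part is 40.4% to 81.5% in DEX pools and at most 28.1% elsewhere, and the *Atp7b* part is 5.13% to 24.2% in DEX pools and at most 4.30% elsewhere.

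None of the 4 PMCA genes passed the test across groups or any contrast. *Atp2b1*, the housekeeping plasma membrane pump, had 132, 119 and 109.8 normalised counts in control pools, 113, 105 and 44.3 in DEX pools, 121, 64.0 and 179 after 1 week and 124, 105 and 88.4 after 4 weeks. The groups overlapped, with the extremes in DEX pool 3 and 1 week pool 3. *Atp2b2*, best known from neurons and cochlear hair cells, was the steadiest of the family. It had 57.0, 61.8 and 38.1 in control pools, 55.7, 51.4 and 62.7 in DEX pools, 72.2, 81.3 and 36.7 after 1 week and 56.8, 53.7 and 54.5 after 4 weeks. Its spread within groups, pooled over the 4 groups, was an SD of 0.37 on the log2 scale, against 1.05 for *Atp2a1*. The log2 differences of *Atp2b1* from control were -0.57, -0.11 and -0.19 (SE 0.37 each) and those of *Atp2b2* were 0.14, 0.23 and 0.10 (SE 0.29 each) in DEX, 1 week and 4 weeks. Their adjusted p in limma's F test was 0.92 and 0.98.

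*Atp2b4*, a widely expressed PMCA gene, had 5.11, 6.71 and 21.1 normalised counts in control pools and 6.71, 12.5 and 9.08 in DEX pools. After 1 week it had 8.36, 5.61 and 26.6, and after 4 weeks 12.6, 9.96 and 8.57. The high values were those of control pool 3 and 1 week pool 3, where the endothelial marker sum was also the highest of its group (62.8 and 162). In the 4 weeks pools that sum was 78.5 to 148, with 8.57 to 12.6 of *Atp2b4*, and the part of endothelial cells in these values was not tested. Its log2 differences from control were 0.02, 0.26 and 0.18 (SE 0.55 each), with an adjusted p of 0.99 in limma's F test. *Atp2b3*, known from neurons, rested on 0 to 7 reads per library, at most 0.761 normalised counts. It was 1 of 10 genes higher in all 4 weeks pools than in all DEX pools, where 9.80% of all genes tested were, but those values are 3 to 7 reads against 0 to 3, and no difference was detectable at this depth (F test adjusted p 0.91, limma).

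**Figure D5:**
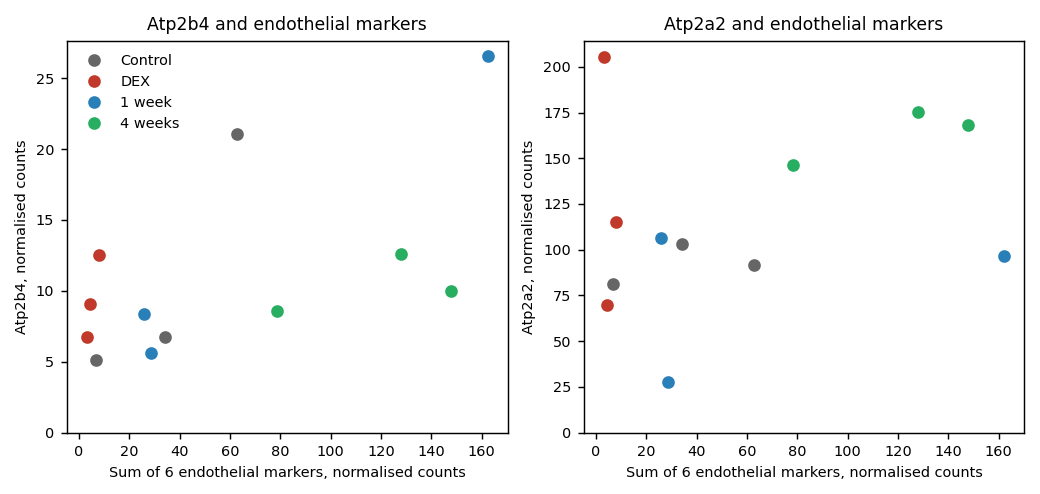
*Atp2b4* and *Atp2a2* (vertical axes, normalised counts) against the sum of 6 endothelial markers (horizontal axes, normalised counts), with 1 point per pool coloured by group. The *Atp2b4* values of 21.1 and 26.6 belong to control pool 3 and 1 week pool 3, and the 4 weeks pools, with sums from 78.5 to 148, have 8.57 to 12.6 of *Atp2b4* and 146 to 175 of *Atp2a2*.

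*Atp2c1*, the Golgi pump, had 153, 122 and 52.8 normalised counts in control pools and 147, 116 and 127 in DEX pools. After 1 week it had 174, 77.1 and 56.3, and after 4 weeks 124, 100.5 and 105. The groups overlapped, and the log2 differences from control were 0.38, -0.13 and 0.14 (SE 0.40 each; F test adjusted p 0.95, limma). *Aste1*, on the opposite strand, shares 1837 exonic bases with *Atp2c1*, so part of these reads cannot be assigned.

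*Atp7a*, the copper pump of most tissues outside the liver, had 50.7, 55.8 and 22.7 normalised counts in control pools, 67.8, 58.9 and 48.2 in DEX pools, 47.8, 40.8 and 31.0 after 1 week and 46.6, 55.1 and 44.6 after 4 weeks. Its DEX pools overlapped those of control and of 4 weeks, and lay just above the 1 week pools, 48.2 against 47.8 at the nearest. Of the 8 genes that did not choose the family, only *Atp7a* was lower in all 1 week pools than in all DEX pools. Of all genes tested 6.87% were. *Atp2a1* and *Atp7b* were too, but their values chose the family, so nothing is read from them. The difference from DEX was -0.56 (SE 0.31) on the log2 scale after 1 week, with an adjusted p of 0.56 in limma's contrast, and the F test gave an adjusted p of 0.85. As a share of both copper pumps per kilobase, *Atp7b* was 1.94% to 4.30% in control pools, 13.0%, 5.13% and 24.2% in DEX pools, 1.24% to 3.85% after 1 week and 1.32% to 4.09% after 4 weeks. *Atp7a* was therefore the main copper pump transcript in every pool.

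Ordered by level per kilobase of exon in control pools, the family ran from *Atp2a2* (15.2 ± 1.80), *Atp2c1* (11.3 ± 5.28) and *Atp2b1* (7.90 ± 0.743) through *Atp7a* (4.94 ± 2.04), *Atp2a1* (4.84 ± 2.04), *Atp2b2* (4.15 ± 0.997) and *Atp2a3* (3.26 ± 2.0) to *Atp2b4* (0.896 ± 0.719), *Atp7b* (0.146 ± 0.0416) and *Atp2b3* (0.0717 ± 0.0748; SD, n = 3 each). Neighbours in that order overlapped between pools except *Atp2b1* against *Atp7a* and *Atp2b4* against *Atp7b*. In DEX pools *Atp2a1* came first (41.9 ± 28.3), overlapping *Atp2a2* (21.4 ± 11.4), and *Atp7b* (1.09 ± 0.699) overlapped *Atp2b4* (0.770 ± 0.238). In both recovery groups *Atp2a1* was in place 7 of 10. Per kilobase of coding sequence the control order began with *Atp2c1* (38.2), *Atp2b1* (32.9) and *Atp2a2* (29.4), so the first places depend on the length used. *Atp7b* and *Atp2b3* were last in control by both lengths. *Atp2a1* was first in DEX by both, but only as a group mean. By coding sequence that mean was 48.9 (18.0 to 83.6), beside 45.5 (40.6 to 51.4) for *Atp2c1* and 41.5 (22.2 to 65.6) for *Atp2a2*. In DEX pools 1 and 2 *Atp2a2* stood above *Atp2a1* by that length.

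Over the whole family, the median log2 difference from control was 0.37 in DEX, -0.12 after 1 week and 0.13 after 4 weeks. Over all genes tested it was -0.02, 0.00 and 0.00. The family medians include *Atp2a1* and *Atp7b*, whose values chose the family, so nothing is read from them. In DEX the other 8 genes lay between -0.70 (*Atp2b3*) and 0.53 (*Atp7a*). Of the 8 genes that did not choose the family, limma called 0 in 1 week against control (0% of all genes tested passed, and 938 had an unadjusted p under 0.05), 0 in 4 weeks against control (0%, 1570) and 0 in 4 weeks against 1 week (0%, 1352). Of the 8, only *Atp2a2* in 4 weeks against 1 week had an unadjusted p under 0.05 in these 3 contrasts. With every other tool and setting run the 3 counts were 0 as well.

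The partners of these pumps were read from 8 lists with 115 genes, of which 107 were tested. With limma's F test 0 of 107 passed, and 17 had an unadjusted p under 0.05, where 2277 of the 24736 genes tested did. Limma's contrast of 1 week with DEX called 1 sodium calcium exchanger gene lower. It called 1 gene of copper uptake, chaperones and storage higher. Over all genes tested, that contrast called 81 lower and 26 higher. Among 15 tested SERCA regulators and calcium binding proteins of the endoplasmic reticulum none had an unadjusted p under 0.05. *Pln*, the inhibitor phospholamban, had 9.24 ± 2.88 normalised counts in control, 12.9 ± 8.39 in DEX, 4.17 ± 3.61 after 1 week and 3.85 ± 0.421 after 4 weeks (SD, n = 3 each). The calcium-binding chaperones *Calr* and *Canx*, the most abundant of the list, had 527 ± 34.7 and 485 ± 159 in control and 521 ± 141 and 585 ± 41.6 in DEX, and *Rcn2* had 153 ± 24.6 and 152 ± 9.01.

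Calcium release and store-operated entry held 4 of 15 genes with an unadjusted p under 0.05. *Stim1*, the sensor of calcium in the endoplasmic reticulum, had 59.3, 43.4 and 74.6 normalised counts in control pools and 129.9, 99.99 and 212 in DEX pools, a log2 difference of 1.28 with an F test adjusted p of 0.15 (limma). *Itpr1*, an inositol trisphosphate receptor gene, had 64.7 ± 2.19 in control, 93.6 ± 1.32 in DEX, 67.6 ± 15.1 after 1 week and 45.2 ± 16.4 after 4 weeks (SD, n = 3 each; F test adjusted p 0.23, limma). Of 9 sodium calcium exchanger genes 3 had an unadjusted p under 0.05. *Slc24a4* had 3.76 ± 0.340 in control and 13.8 ± 4.47 in DEX, a log2 difference of 1.80 (F test adjusted p 0.11, limma). The paper places *Slc24a4* among the genes up in DEX. In control and DEX *Slc24a2* had 38.5 ± 6.90 and 55.7 ± 10.5, and *Slc24a5* had 14.7 ± 6.90 and 15.5 ± 1.94. Mitochondrial calcium uptake held 1 of 10, the uniporter *Mcu*, with 40.8 ± 7.35 in control, 56.6 ± 16.2 in DEX and 30.2 ± 1.15 after 4 weeks. Its partner *Mcub* had 183 ± 33.9 and 149 ± 46.3 in control and DEX, and the outer membrane channel *Vdac1* 162 ± 20.03 and 252 ± 76.9. Among 7 PMCA partners and Golgi genes none had an unadjusted p under 0.05. The PMCA subunit *Bsg* had 1359 ± 77.0 in control and 1754 ± 778 in DEX, calmodulin gene *Calm2* 526 ± 56.0 and 555 ± 118, and the Golgi transporter *Tmem165* 47.5 ± 22.4 and 51.1 ± 10.2.

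On the copper side, 3 of 15 genes of uptake, chaperones and storage had an unadjusted p under 0.05, and all 3 were metallothioneins, small proteins that bind zinc and copper. *Mt3* had 29.1, 17.7 and 38.6 normalised counts in control pools, 11.02, 15.4 and 15.4 in DEX pools, 38.0, 74.3 and 42.9 after 1 week and 27.1, 23.9 and 37.0 after 4 weeks, so its DEX pools lay below all others (F test adjusted p 0.090, limma). *Mt1* had 4334 ± 65.7 in control, 3265 ± 398 in DEX, 2044 ± 979 after 1 week and 1911 ± 905 after 4 weeks (SD, n = 3 each; F test adjusted p 0.46, limma). *Mt2* had 851 ± 157, 601 ± 44.9, 407 ± 234 and 371 ± 233 in the same order. Of 13 tested copper-dependent enzymes 3 had an unadjusted p under 0.05. The ferroxidases *Cp* and *Heph* had 12.8 ± 1.53 and 4.05 ± 0.66 after 4 weeks against 4.58 ± 1.01 and 1.20 ± 0.766 in control, with F test adjusted p of 0.30 and 0.43 (limma). In the same 4 weeks pools the 6 pericyte and fibroblast markers summed to 44.3 to 59.8, against 5.74 to 29.5 in control pools. *Pam*, the amidating enzyme of secretory granules, had 264 ± 80.8 in control, 178 ± 51.4 in DEX, 246 ± 138 after 1 week and 284 ± 34.8 after 4 weeks, and *Loxl1* had 28.0 ± 17.0 in control and 21.6 ± 5.59 in DEX.

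Among 23 tested P-type ATPases outside the family, 3 had an unadjusted p under 0.05. *Atp10a*, a phospholipid flippase gene, had 7.87 ± 3.44 in control and 18.0 ± 2.42 in DEX (SD, n = 3 each; F test adjusted p 0.33, limma). *Atp13a2*, a lysosomal polyamine transporter gene, had 63.5 ± 9.12 in control and 98.5 ± 25.4 in DEX. In both genes every DEX pool stood above every control pool, as in 6.61% of all genes tested, and 0 of the 23 passed after adjustment.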

How the data were processed

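RNA of sorted corticotrophs was amplified with SMART-V4, made into libraries with Nextera XT and sequenced in 12 libraries, 3 for each of the 4 groups that the sample labels give. Per the study's methods and processing notes, the authors trimmed reads (Trim Galore 0.6.5), aligned them to GRCm38 (STAR 2.7.1a), counted read pairs on genes with a reverse-stranded setting (featureCounts 2.0.0) and used edgeR. The deposited signal is the CPM of the TMM-scaled library size, called normalised counts. Divided by the value of 1 read, 100.0% of 271881 values above 0 were whole within 1e-06, so reads were recovered. All columns belonged to listed samples. No 2 libraries were identical.

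The design had assumed CPM, and its test was kept: limma 3.58.1 (R 4.3.3) on log2(value + 0.1) with a trend, for genes above 0.1 in at least 3 libraries, an F test over 3 contrasts with control, and Benjamini-Hochberg adjustment over all genes, called under 0.05. The test was run on simulated counts with 200 changed genes and the same spread for every gene. That check does not cover pools as uneven as these. Alternatives were other pseudocounts, filters and scaling, array weights, robust moderation, the pool number as a block, dropping 1 library at a time, edgeR 4.0.16 and DESeq2 1.42.0 on the reads. That pools came from separate mice rests on the study's methods, and p-values measure the spread between these pools. The libraries carry no molecular identifiers, and the depth of 7719894 to 12848078 reads sets counting error only.

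Lengths, coordinates and overlaps are from GENCODE M21 and promoters from RefSeq. *Atp2a2* and *Atp2b3* had no promoter entry. The family, lists and tests were chosen with earlier results of these data known. Named genes are the 10 ATPases, *Pomc*, the 5 genes most like *Atp2a1* and *Atp7b*, their nearest measured neighbours, the striated muscle markers, and in each partner list those past the test or, where there were none, the 2 of smallest p and the 2 of highest level; 3 genes that this rule names are not reported here. The corticotroph markers, overlapping genes, and the endothelial and fibroblast markers named were added after values were seen. The other lists of pituitary and blood cell markers were used only to describe the libraries.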

Additional observations from a re-analysis of the deposited data

How the results depend on the processing

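The counts of the 10 genes that follow turn on *Atp2a1* and *Atp7b*, whose values chose the family, so they support nothing and are given only to show how they move with the processing. The number of the 10 genes past limma's F test was 1. It was 2 with array weights, edgeR's quasi-likelihood test, edgeR's likelihood ratio test and DESeq2, *Atp7b* being the addition, and 0 to 1 with each library left out (0 without DEX pool 1 or DEX pool 3). These tools also called more genes over all, 1069, 165, 1047 and 675 in place of 78. Without DEX pool 1 or DEX pool 3 the F test called 12 and 7 genes over all. In DEX against control the count was 0, against 1 with array weights and quasi-likelihood, 2 with the likelihood ratio and DESeq2, and 0 to 1 with each library left out (1 without 1 week pool 3, *Atp2a1*). In 1 week against DEX it was 1, against 2 with quasi-likelihood, likelihood ratio and DESeq2, 0 with only the 2 groups compared, which leaves 6 libraries, and 0 to 2 with each library left out (0 without DEX pool 3, 2 without DEX pool 2 or 1 week pool 1). In 4 weeks against DEX it was 1, against 2 with pseudocounts of 0.5 and 1, array weights, quasi-likelihood, likelihood ratio, DESeq2, and, chosen after seeing the data, without control pool 3 and 1 week pool 3, 0 with only the 2 groups compared, and 0 to 2 with each library left out (0 without DEX pools 1 or 3 or 4 weeks pools 1 or 2, 2 without DEX pool 2 or 1 week pools 2 or 3). The cause of these shifts was not tested. The counts for 1 week against control, 4 weeks against control and 4 weeks against 1 week were 0 in all 25 settings.

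Pools of equal number were not treated as pairs. The correlation of their deviations from the group means ran from -0.29 to 0.40 over 18 pairs, with 7 above 0.1. Over the 36 pairs of unequal number it ran from -0.27 to 0.38, with 7 above 0.1. These ranges overlap and cannot decide whether equal numbers share anything. With the number as a replicate block the F test count was 1 and the count in 4 weeks against DEX was 2, and no other count changed.

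The log2 difference of DEX from control kept its sign in 25 of 25 settings for *Atp2a1* (2.41 to 3.52) and *Atp7b* (1.88 to 3.19). It also did so for *Atp2b1* (-0.81 to -0.14) and *Atp7a* (0.12 to 0.76), and in all 24 settings for *Atp2b3*. For *Atp2a3*, *Atp2b2*, *Atp2b4* and *Atp2c1* it changed sign in 2 to 6 settings and for *Atp2a2* in 1. Every DEX pool of *Atp2a1* and *Atp7b* stood above every control pool. Leaving out a library could therefore not change their sign, and nothing is read from it. *Atp7b* and *Atp2b3* rest on few reads per library, which limits any statement on their recovery.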
